A study of Oryctolagus cuniculus with 6 samples.

Results

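The imprinted DLK1-DIO3 miRNA cluster was followed in extracellular vesicles of rabbit seminal plasma. Members were taken by name from a list of 47 mature miRNAs of the locus. The list was chosen with earlier results of these data known. Of these names, 38 had a row among the 577 miRNAs of the table, from 33 hairpins, and the other 9 names had no row. One of those 9, miR-323-3p, is an older name of miR-323a-3p, which has a row.

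The compared groups were Sub-fertile and Fertile, with 3 libraries each, all from California and New Zealand White cross males of 10 to 12 months, with no agent or mutation given in either group. From 14 males, 3 with low and 3 with high semen quality (viability, abnormal forms, concentration and motility) had been picked, so the group names rest on semen measures. A library represents 1 biological replicate from 2.5 mL of seminal plasma, and the labels do not state whether a replicate is 1 male. Seminal plasma mixes secretions of the testis, epididymis and accessory glands, so a vesicle library has no single cell of origin.

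The DLK1-DIO3 locus is a block of imprinted genes, that is, genes read from only one parental chromosome. In mouse and human the protein-coding genes DLK1, RTL1 and DIO3 are read from the paternal chromosome. The long noncoding RNAs and miRNAs are read from the maternal one. DLK1 is a Delta-like protein, RTL1 a retrotransposon-derived protein needed in the placenta and DIO3 an enzyme that inactivates thyroid hormone. In mouse, miR-127 and miR-136 lie antisense to Rtl1 and can direct cleavage of its transcript. Outside the placenta and embryo, the miRNAs of the locus are known mainly from brain and muscle.

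The rabbit gene table of RefSeq (assembly mOryCun1.1, used for names and neighbourhood only) placed 36 miRNA genes between DLK1 and DIO3, and all 38 members matched one of them. In gene order they fall into 2 stretches on either side of MIR370. The first, called the RTL1 stretch here, holds MIR337, MIR433, MIR127, MIR432 and MIR136, the last 4 of them inside the span of RTL1. It gave 7 rows of the table. The second runs from MIR379 to MIR656 and gave 30 rows. This split was made after the values had been seen, and no test was made on it.

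Values below are scaled CPM, the deposited signal, in which the count of a miRNA is divided by library depth and a scaling factor. Whole counts could be recovered from it. Their totals were 129387, 242078 and 636929 in Sub-fertile replicates 1, 2 and 3, against 772619, 536026 and 453675 in Fertile replicates 1, 2 and 3. A single count was worth 6.24 scaled CPM in Sub-fertile replicate 1, the shallowest library, and 1.33 in Fertile replicate 1, the deepest. Sub-fertile replicate 1 also had the highest scaling factor, 1.24, against 0.902 to 1.01 elsewhere. The cargo held the epithelial miR-200c-3p and miR-141-3p, whose sum ran from 76557 to 122490 in Sub-fertile and from 84039 to 91827 in Fertile libraries. It also held the testis X-linked list, with 3 of 3 rows above 0. No row carried the listed names miR-200a-3p, miR-200b-3p and miR-429-3p (epithelial), miR-509-3p (testis X-linked) or miR-128-3p (neural). Rows named miR-509a-3p, miR-509b-3p, miR-509c-3p and miR-128a-3p were not counted in these lists. At 0 in every library were miR-124-3p of the neural list, miR-133a-3p with miR-133b-3p of the muscle list, miR-145-5p and miR-214-3p of the stromal list and miR-144-3p of the erythroid list.

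The cluster was a trace component of the vesicles. All members together took 551 of 2770714 counts, or 199 per 1000000. Of the 38 rows, 20 were at 0 in every library (52.6%), against 36.2% of all rows of the table. Those at 0 included both strands of miR-337, miR-369 and miR-485, and miR-370-3p, miR-410-3p, miR-433-3p and miR-495-3p. A count of 0 over all libraries allows up to 3 counts, or 1.08 per 1000000, and up to 18.7 scaled CPM in the shallowest library (counting error only). In vesicles of mixed origin, fewer cells or vesicles of one type and fewer copies in each cannot be told apart.

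A member was above 0 in 18 of 38 rows. The most abundant by mean was miR-411-5p, ranked 167 of 577, then miR-379-5p, ranked 172, miR-127-3p, ranked 182, and miR-323a-3p, ranked 196. The mean of miR-127-3p rested on Sub-fertile replicate 2, at 192 scaled CPM against at most 16.2 in any other library. The median level of the 234 miRNAs tested below was 145 scaled CPM, and no member had a mean over all libraries that reached it. In the plot of levels by rank the members lie in the lower part of the curve.

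**Figure D1:**
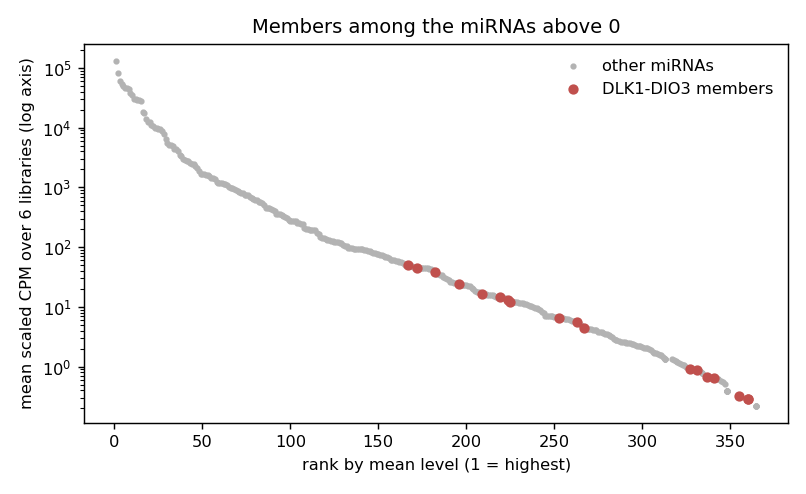
Mean level over 6 libraries (scaled CPM, log axis) against rank for the miRNAs above 0, with members of the DLK1-DIO3 cluster as large points and other miRNAs as small ones. The highest member, miR-411-5p, is at rank 167, and the others with counts lie to its right.

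Detection was patchy. Above 0 were 8, 12 and 14 members in Sub-fertile replicates 1, 2 and 3, and 11 in each Fertile library. At 10 scaled CPM or more were 6, 8 and 4 members in the Sub-fertile and 6, 4 and 7 in the Fertile libraries. These numbers are not adjusted for depth, and the cut asks for fewer counts in a shallow library. In Sub-fertile replicate 1, miR-127-3p and miR-409-3p reached it on 2 counts each. The low number above 0 in Sub-fertile replicate 1 goes with its depth. At the depth of that library, the number expected above 0 was 8, 10.6 and 7.95 in the Sub-fertile and 6.91, 7.51 and 8.62 in the Fertile libraries. Sub-fertile replicate 2 then held the most, and the other 5 libraries lay within 2 members of each other. Only 7 members were above 0 in all 6 libraries: miR-411-5p, miR-379-5p, miR-323a-3p, miR-381-3p, miR-382-5p, miR-487b-3p and miR-409-3p.

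**Figure D2:**
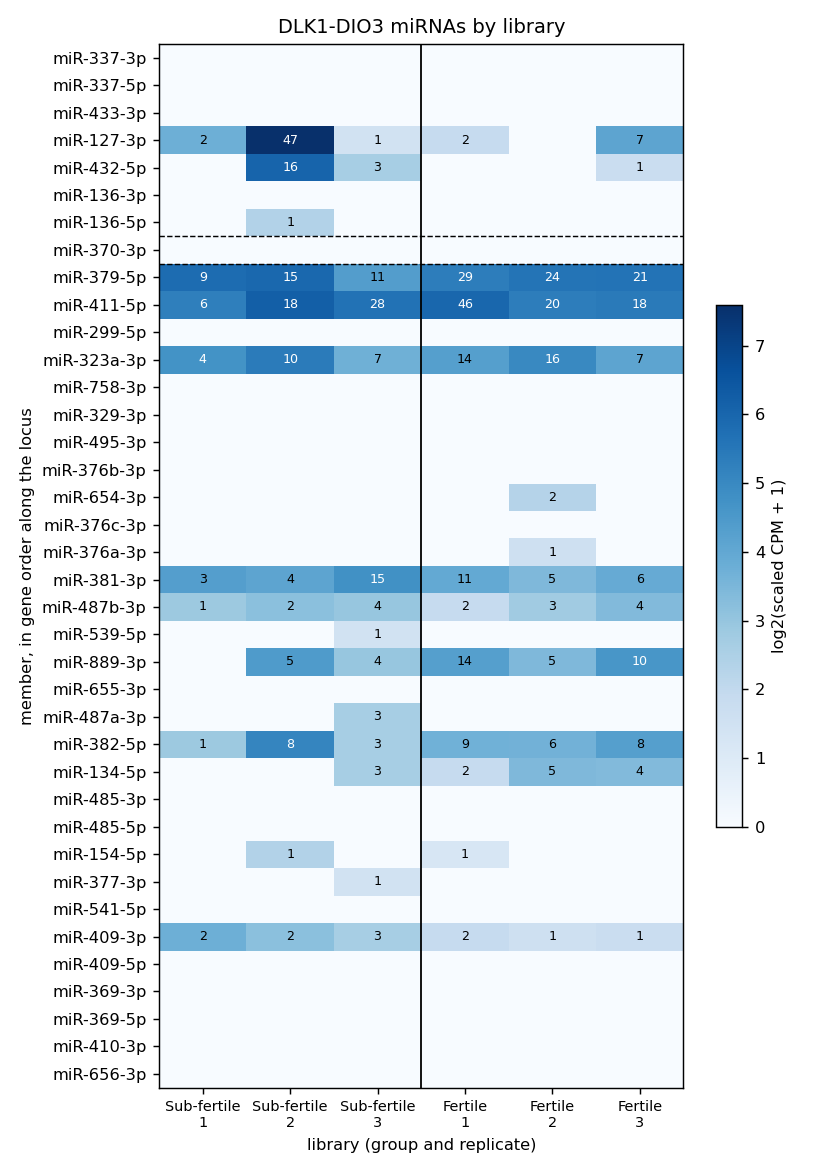
Level of the 38 members (rows, in gene order along the locus, colour in log2(scaled CPM + 1)) in each library (columns), with the recovered count printed where it is above 0; dashed lines set off MIR370. Counts gather in a few rows of the MIR379 to MIR656 stretch in every library, while miR-127-3p and miR-432-5p stand out in Sub-fertile replicate 2, with 47 and 16 counts.

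The summed level of the members was 175, 527 and 151 scaled CPM in Sub-fertile replicates 1, 2 and 3, against 176, 171 and 202 in Fertile replicates 1, 2 and 3. Sub-fertile replicate 2 was far above the other 5 libraries, and the other Sub-fertile libraries lay among or below the Fertile ones, so the groups overlapped. The means were 284 ± 210.4 in Sub-fertile and 183 ± 16.3 in Fertile libraries (SD, n = 3 each), a log2 ratio of 0.64. Without Sub-fertile replicate 2 that ratio was -0.17, so its sign rested on this library. As a share of counts, the members took 533 per 1000000 in Sub-fertile replicate 2 (95% exact binomial interval 445 to 633). On the same scale the share was 216 (144 to 313) in Sub-fertile replicate 1 and 137 (109 to 168) in Sub-fertile replicate 3, while Fertile libraries had 164 to 192. The interval of Sub-fertile replicate 2 met no other.

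The excess of that library sat largely in the RTL1 stretch. This stretch summed to 12.5, 261 and 6.96 scaled CPM in Sub-fertile replicates 1, 2 and 3, against 2.67, 0 and 18.5 in Fertile replicates 1, 2 and 3. It made up 49.6% of the summed level in Sub-fertile replicate 2 and at most 9.20% in any other library. The MIR379 to MIR656 stretch summed to 162, 265 and 144 scaled CPM in Sub-fertile and 173, 171 and 183 in Fertile libraries. Sub-fertile replicate 2 was again the highest, by less. Group means of this stretch were 191 ± 65.3 in Sub-fertile and 176 ± 6.29 in Fertile libraries (SD, n = 3 each), a ratio of 1.08.

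**Figure D3:**
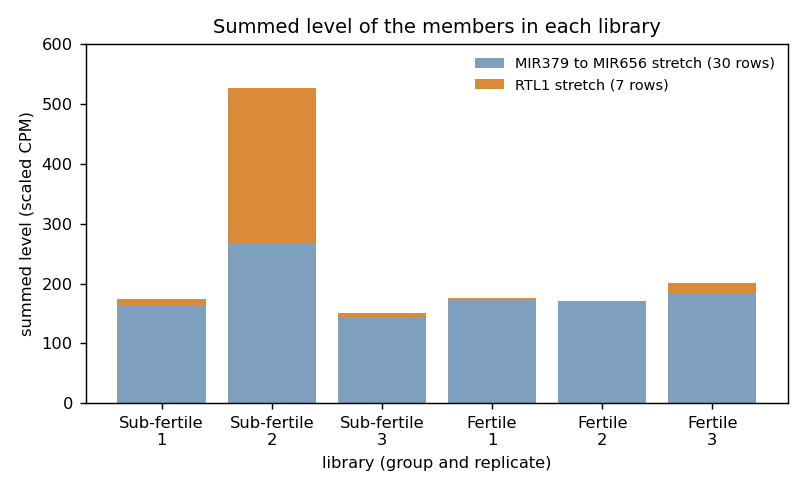
Summed level of the members in each library (scaled CPM), split into the MIR379 to MIR656 stretch and the RTL1 stretch; MIR370 had no counts. Sub-fertile replicate 2 reaches 527, with 261 from the RTL1 stretch, and the other 5 libraries lie between 151 and 202.

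Within the RTL1 stretch the counts came from neighbouring genes. The first, miR-127-3p, stood at 12.5, 192 and 1.74 scaled CPM in Sub-fertile replicates 1, 2 and 3, against 2.67, 0 and 16.2 in Fertile replicates 1, 2 and 3, on 2, 47 and 1 and on 2, 0 and 7 counts. Its neighbour miR-432-5p stood at 0, 65.4 and 5.22 in the Sub-fertile libraries and at 0, 0 and 2.32 in the Fertile ones, on 0, 16 and 3 and on 0, 0 and 1 counts. Both were high in Sub-fertile replicate 2 alone, and outside it the groups overlapped. The next gene gave miR-136-5p, which had its single count in the same library. The remaining rows of the stretch, miR-136-3p, miR-337-5p, miR-337-3p and miR-433-3p, were at 0 throughout.

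How far a library departed from the others was compared over all miRNAs with at least 10 counts in it. Of 174 such miRNAs in Sub-fertile replicate 2, miR-432-5p and miR-127-3p had the highest 2 ratios to the highest of the other 5 libraries, 12.5 and 11.8. The other members with at least 10 counts there had much smaller ratios: miR-323a-3p at 1.31 (rank 5), miR-411-5p at 1.20 (rank 7) and miR-379-5p at 1.09 (rank 10). All 5 members were thus highest in this library, as were 9.77% of the 174 miRNAs. The count minimum favours miRNAs that are high in the library it is set in, and the library was picked after its values were seen. In Sub-fertile replicate 3, 1 of 3 such members was highest there, against 30.2% of all such miRNAs, and in Fertile replicate 3 also 1 of 3, against 13.8%. In Fertile replicate 1 it was none of 5, against 16%, and in Fertile replicate 2 none of 3, against 16.2%. Sub-fertile replicate 1 had no member with at least 10 counts.

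Marker lists were summed in the same libraries, and none of the 5 below was highest in Sub-fertile replicate 2. The neural list had 1 of 2 rows above 0 (miR-9-5p), and its sum ran from 81.8 to 337 in Sub-fertile and from 144 to 251 in Fertile libraries, with 163 in Sub-fertile replicate 2. This sum is the level of miR-9-5p alone, since miR-128a-3p, with a mean of 646 over all libraries, was not counted in it. The striated muscle list had 2 of 4 rows above 0, and its sum ran from 181 to 268 in Sub-fertile and from 11.6 to 60.0 in Fertile libraries, with 233 in Sub-fertile replicate 2. The stromal list had 3 of 5 rows above 0, at 127 to 244 in Sub-fertile and 105 to 165 in Fertile libraries, with 188 in Sub-fertile replicate 2. The leukocyte list had 5 of 5, at 324 to 699 in Sub-fertile and 252 to 595 in Fertile libraries, with 568 in Sub-fertile replicate 2. The erythroid and platelet list had 2 of 3, at 6.24 to 20.4 in Sub-fertile and 12.0 to 37.1 in Fertile libraries, with 20.4 in Sub-fertile replicate 2. Their part in the levels of miR-127-3p and miR-432-5p was not tested.

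The MIR379 to MIR656 stretch was carried by its first genes. The hairpins of miR-379 and miR-411 are neighbours, and in mouse miR-379 opens the large miRNA cluster of the locus. For miR-411-5p the values were 37.5, 73.5 and 48.7 scaled CPM in Sub-fertile and 61.3, 38.9 and 41.7 in Fertile replicates 1, 2 and 3. For miR-379-5p they were 56.2, 61.3 and 19.1 in Sub-fertile and 38.7, 46.7 and 48.7 in Fertile replicates 1, 2 and 3. In both cases the groups overlapped and Sub-fertile replicate 2 was highest. Together these 2 miRNAs made up 25.6% to 53.6% of the summed level of all members, RTL1 stretch included, in Sub-fertile and 44.8% to 56.8% in Fertile libraries. The lowest share was that of Sub-fertile replicate 2, where they summed to 135 of the 265 scaled CPM of their own stretch.

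Further along the stretch, miR-323a-3p stood at 25.0, 40.8 and 12.2 scaled CPM in Sub-fertile and 18.7, 31.1 and 16.2 in Fertile replicates 1, 2 and 3. For miR-381-3p the values were 18.7, 16.3 and 26.1 in Sub-fertile and 14.7, 9.73 and 13.9 in Fertile replicates 1, 2 and 3. This was the only tested member whose groups did not overlap, on 3, 4 and 15 counts in the Sub-fertile and 11, 5 and 6 in the Fertile libraries. The depth-adjusted ratio of its counts, Sub-fertile over Fertile, was 1.73 (95% counting interval 0.914 to 3.28). This ratio pools the counts of each group, with 15 of the 22 Sub-fertile counts from replicate 3. Its interval includes 1 and leaves out the spread between libraries. For miR-382-5p the values were 6.24, 32.7 and 5.22 in Sub-fertile and 12.0, 11.7 and 18.5 in Fertile replicates 1, 2 and 3. Those of miR-889-3p were 0, 20.4 and 6.96 in Sub-fertile and 18.7, 9.73 and 23.2 in Fertile replicates 1, 2 and 3. The last 2 miRNAs were low in Sub-fertile replicates 1 and 3, while Sub-fertile replicate 2 was above the Fertile values for miR-382-5p and among them for miR-889-3p.

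Between the groups, no member passed. The test was limma on log2(value + 1) over the 234 miRNAs with at least 10 scaled CPM in at least 3 of 6 libraries, with p-values adjusted by Benjamini-Hochberg over all of them at a threshold of 0.05. It covered 7 of the 38 members, since the others fell short of that filter, and 0 of these 7 were called, against 3.42% of all miRNAs tested (0.855% higher and 2.56% lower in Sub-fertile). At an unadjusted p under 0.05 there were also 0 of the 7, against 19.2% of all tested, and on the recovered counts 0 were called by edgeR, against 3.42% of all tested, and 0 by DESeq2, against 6.84%. Groups without overlap and higher in Sub-fertile were found for 1 of the 7, miR-381-3p, where 9.4% of all tested miRNAs showed this, and lower for 0 of the 7, where 16.2% did. The median log2 change of the 7 was 0.13, beside -0.10 over all 234, with 4 changes above and 3 below 0.

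The intervals were wide, so the data bound these differences only loosely. For miR-411-5p the log2 change was 0.14 (95% interval -0.83 to 1.12, limma adjusted p = 0.876), from 53.2 ± 18.4 in Sub-fertile and 47.3 ± 12.2 scaled CPM in Fertile libraries (SD, n = 3 each). For miR-379-5p it was -0.13 (-1.33 to 1.07, adjusted p = 0.895), from 45.5 ± 23.0 in Sub-fertile and 44.7 ± 5.30 in Fertile libraries. For miR-323a-3p the log2 change was 0.13 (-1.28 to 1.54, adjusted p = 0.905), for miR-381-3p 0.63 (-0.70 to 1.96, adjusted p = 0.592) and for miR-382-5p -0.36 (-2.27 to 1.55, adjusted p = 0.846).

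The largest changes by size were the least certain. For miR-127-3p the log2 change was 2.27 (-1.54 to 6.09, limma adjusted p = 0.510), from 68.7 ± 107 in Sub-fertile and 6.30 ± 8.70 in Fertile libraries (SD, n = 3 each), and with 1 library left out it ran from 0.61 (without Sub-fertile replicate 2) to 3.68 (without Sub-fertile replicate 3). It was 3.51 with edgeR and 3.57 with DESeq2. For miR-889-3p it was -1.63 (-4.32 to 1.06, adjusted p = 0.510), from 9.13 ± 10.4 in Sub-fertile and 17.2 ± 6.84 in Fertile libraries. With 1 library left out it ran from -2.61 (without Sub-fertile replicate 2) to -0.40 (without Sub-fertile replicate 1, where this miRNA had 0 counts), and it was -0.84 with edgeR and -0.79 with DESeq2. The signs of miR-379-5p and miR-382-5p flipped with DESeq2 (0.051 and 0.13) and without Sub-fertile replicate 3 (0.39 and 0.081). Those of miR-411-5p and miR-323a-3p flipped without Sub-fertile replicate 2 (-0.12 and -0.26), and that of miR-323a-3p also without Fertile replicate 3 (-0.05).

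**Figure D4:**
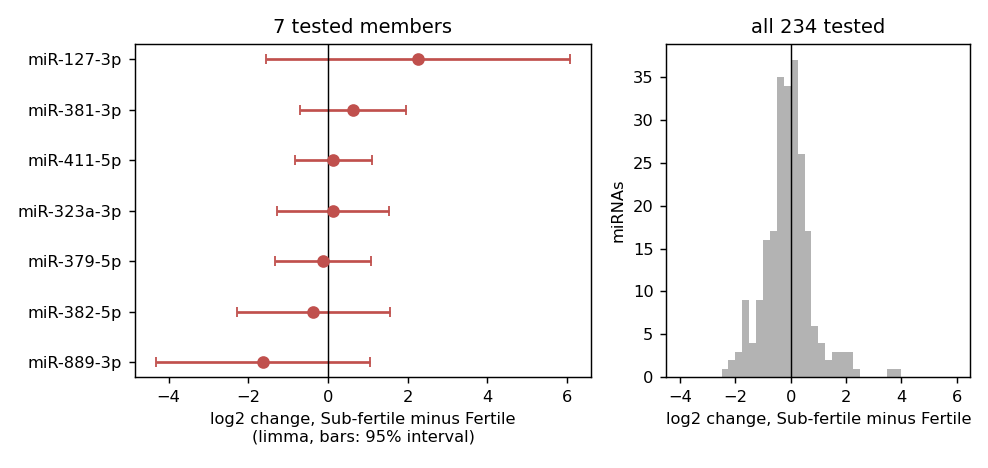
Left, log2 change (Sub-fertile minus Fertile, log2(scaled CPM + 1)) of the 7 tested members with 95% intervals; right, the changes of all 234 tested miRNAs. Every member's interval crosses 0, and that of miR-127-3p is the widest, from -1.54 to 6.09.

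Of the 11 members above 0 that fell short of the filter, miR-432-5p was described above. For miR-409-3p the values were 12.5, 8.17 and 5.22 scaled CPM in Sub-fertile and 2.67, 1.95 and 2.32 in Fertile replicates 1, 2 and 3. The groups did not overlap, but the values rest on 7 counts in all Sub-fertile and 4 in all Fertile libraries. Their depth-adjusted ratio, Sub-fertile over Fertile, was 3.03 (95% counting interval 0.770 to 14.1). Among the 368 miRNAs above 0 in any library, 6.52% had groups without overlap and higher in Sub-fertile. For miR-134-5p, which limits dendritic spine size in rat neurons, the values were 0, 0 and 5.22 in Sub-fertile and 2.67, 9.73 and 9.27 in Fertile replicates 1, 2 and 3. Those are 3 counts in all Sub-fertile and 11 in all Fertile libraries, and the same ratio was 0.472 (0.0846 to 1.79). Both counting intervals include 1, and they leave out the spread between libraries.

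The values of miR-487b-3p were 6.24, 8.17 and 6.96 scaled CPM in Sub-fertile and 2.67, 5.84 and 9.27 in Fertile replicates 1, 2 and 3, and the groups overlapped. The other 7 had 1 to 3 counts in all. Of these, miR-136-5p, miR-376a-3p, miR-377-3p and miR-539-5p had 1 count each, miR-154-5p and miR-654-3p had 2 and miR-487a-3p had 3. No direction can be read from them at this depth.

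For 6 of the 7 tested members the variation between libraries was 1.01 to 2.32 times what counting alone would give. The spread of counts around the value expected from depth and scaling, as chi-square per degree of freedom, is near 1 under counting error alone. It was 1.01 for miR-381-3p, 1.37 for miR-411-5p, 1.86 for miR-889-3p, 1.93 for miR-323a-3p, 2.25 for miR-379-5p and 2.32 for miR-382-5p. Far above these were miR-127-3p at 71.3 and miR-432-5p at 24.5. Over all 234 tested miRNAs the median was 8.21, but the measure grows with the count. Tested members had a median of 58 counts over the 6 libraries and all tested miRNAs 399.

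How far the tested members moved together depended on 1 library. Over the 21 pairs of tested members, the median correlation of log2 levels across the 6 libraries was r = 0.26 (Spearman rho 0.26), with r from -0.58 to 0.79. Over all pairs of tested miRNAs from different hairpins the median r was 0.01. These are descriptions, since pairs share libraries, depth and scaling and the counts are low. Of the 7 members, 5 were highest in Sub-fertile replicate 2. Without that library the median r of the members was -0.20. Taken on deviations from each group's mean, with all 6 libraries, it was 0.45.

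The best counted hairpins were read from one strand. A hairpin can yield a miRNA from its 5p and its 3p strand, and both strands of all 33 hairpins had rows. Counts were found for 19 hairpins, many with too few to show 2 strands. Of the 8 with 20 or more counts, 7 had them on one strand only (87.5%), against 43 of the 172 other hairpins with 20 or more counts (25.0%). The median count was 51 in these member hairpins and 962 in the others, and the share depends on the count, so the shares are given as a description. The 5p strand held 136 of 136 counts for miR-411 and 109 of 109 for miR-379, so the opposite strand at 0 counts allows a share of up to 2.21% and 2.75% (counting error only). The 3p strand held 59 of 59 counts for miR-127, 58 of 58 for miR-323a, 44 of 44 for miR-381 and 38 of 38 for miR-889.

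Both strands were seen for 4 hairpins, miR-382, miR-487a, miR-487b and miR-654. For miR-382 the 5p strand had 35 counts and the 3p strand 4, all 4 in Fertile replicate 3. This is a 3p share of 10.3%, with an upper 95% exact binomial bound of 24.2%. For miR-487b the 3p strand had 16 counts and the 5p strand 1. In all, the 33 rows of the locus that are not on the member list held 13 counts, and 0 of them reached the filter.

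**Figure D5:**
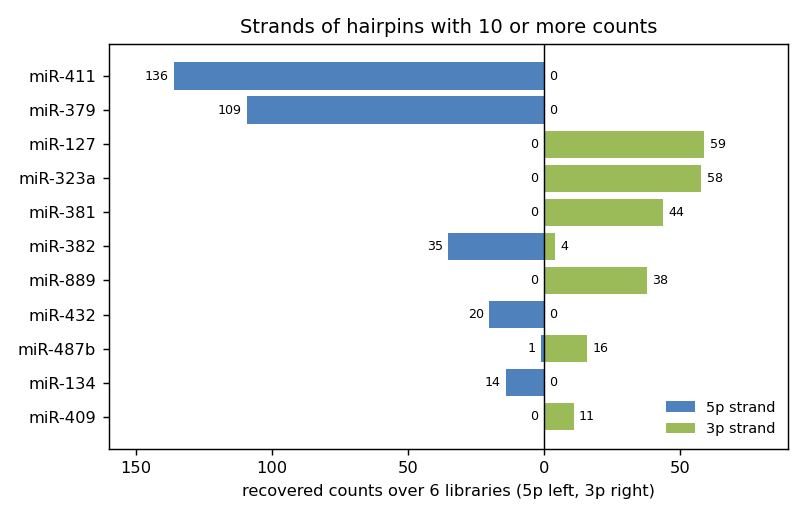
Recovered counts over 6 libraries on the 5p strand (left) and the 3p strand (right) of member hairpins with 10 or more counts. Every bar pair is one-sided except those of miR-382 (35 and 4) and miR-487b (1 and 16).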

How the data were processed

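Small RNA of seminal plasma vesicles was sequenced. Per the labels' protocols, vesicles were isolated by ultracentrifugation and size exclusion, and the QIAseq miRNA kit served for libraries. The submitters' processing notes name OryCun2.0 as build and DESeq2, bcl2fastq and Bowtie2 2.2.2 as tools, without saying what each did. The deposited table, named CPM by the authors, holds a normalized signal whose totals per library ran from 807952 to 1108265. Of all values, 100% were whole multiples of the smallest value above 0 in their library (tolerance 1e-06), so counts were recovered. The implied factors equal edgeR's TMM factors on these counts, so the scaling is inferred to be TMM. The sources used here do not give whether counts are of reads or of molecular identifiers, nor how similar miRNAs were told apart in counting, so intervals on counts cover counting error only.

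Deposited values were tested with limma 3.58.1 (R 4.3.3, trend, two-sided, pseudocount 1). Fold changes of low miRNAs depend on this scale and can come out smaller or larger than on counts. For miR-127-3p the log2 change was 2.27, against 3.51 with edgeR, and for miR-889-3p it was -1.63, against -0.84. The recovered counts were tested with edgeR 4.0.16 (quasi-likelihood), which called 8 miRNAs, and with DESeq2 1.42.0. Scripts were tested on simulated data. The members, lists and tests were chosen with earlier results of these data known. Every member past the filter was named with its values, those under it by values or counts, and those at 0 as a count with examples. Summed levels, detection, strand use and co-variation were described without a test. The p-values measure the spread between libraries, which the labels call biological replicates. Alternatives were other pseudocounts, filters, scalings and tools, the replicate number as a block, each library left out and, chosen after seeing the data, summing without miR-127-3p and miR-432-5p. No table of miRNA sequences was used here.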

Additional observations from a re-analysis of the deposited data

How the results depend on the processing

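In every setting run 0 members were called, over pseudocounts of 0.5 and 5, no filter (18 members), 2 other scalings, edgeR, DESeq2, the replicate block and each library left out. At a filter of 100 no member was left to test. The count over all miRNAs, 8, became 14 at that filter (131 tested), 16 with DESeq2, 0 with the replicate block and 3 to 39 with 1 library left out (39 without Sub-fertile replicate 1). The cause was not tested. No label says that the replicate numbers pair the males, so they were not taken as pairs. Deviations from the group means correlated at 0.05, -0.12 and 0.10 between libraries of the same number. With 3 libraries in each group, these values cannot settle whether the numbers pair. With the block the limma adjusted p of miR-127-3p was 0.577.

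With 1 library left out, the median log2 change of the tested members ran from -0.26 to 0.39, the log2 ratio of summed levels from -0.17 to 0.94 and the median r from -0.20 to 0.44, each lowest without Sub-fertile replicate 2. On deviations from the group means the median r was 0.45, against 0.26. Log2 changes ran from -0.26 to 0.57 for miR-323a-3p, from -0.42 to 0.39 for miR-379-5p, from -1.14 to 0.081 for miR-382-5p from -0.12 to 0.36 for miR-411-5p, from 0.61 to 3.68 for miR-127-3p, from -2.61 to -0.40 for miR-889-3p and from 0.45 to 0.77 for miR-381-3p. With DESeq2 miR-379-5p had 0.051 and miR-382-5p 0.13. The median change of all tested miRNAs, -0.10, was 0.02 with plain CPM and 0.05 with DESeq2, and that of the members 0.25 with both. Without miR-127-3p and miR-432-5p the log2 ratio of summed levels was 0.13, against 0.64 with them. The tested members had a median of 58 counts over 6 libraries, which limits their precision.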

Other observations

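A miRNA of another imprinted region, miR-335-5p, was above the summed level of the DLK1-DIO3 members in every library. The other names looked for from such regions, miR-296, miR-298, miR-483 and miR-675, had no row. The hairpin of miR-335 lies in the imprinted gene MEST in human and mouse, and both of its strands were past the filter. Its 5p strand stood at 581, 1617 and 1992 scaled CPM in Sub-fertile and 932, 788 and 987 in Fertile replicates 1, 2 and 3. Sub-fertile replicate 1 was lowest and the other Sub-fertile libraries were highest, so the groups overlapped, and the log2 change was 0.46 (SE 0.42, limma adjusted p = 0.592). The 3p strand stood at 56.2, 172 and 171 in Sub-fertile and 157, 113 and 104 in Fertile replicates 1, 2 and 3, with a log2 change of -0.05 (SE 0.47, limma adjusted p = 0.942). It was below the summed level of the DLK1-DIO3 members in every library except Sub-fertile replicate 3. Sub-fertile replicate 3, the highest library for miR-335-5p, had the lowest summed level of the DLK1-DIO3 members. Sub-fertile replicate 2, the next highest for miR-335-5p, had the highest summed level, 527 scaled CPM.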
